A study of Mus musculus with 9 samples.

Results

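Tfap2a, Tfap2b, Lhx9 and Neurod1, 4 transcription factor genes, stood highest in the intermediate pieces of neonatal mouse spinal cord. They were chosen by their array values, for standing higher in intermediate than in dorsal and ventral pieces, so their excess in intermediate pieces is described here and carries no test; the comparison of dorsal with ventral pieces did not enter the choice and is tested. Members are all probe sets that the platform annotation assigns to these symbols alone, which gave 11 of 34945 single-symbol probe sets and 4 of 18193 genes. RNA came from spinal cords at postnatal day 6, cut into intermediate, dorsal and ventral pieces, with each of 3 animals giving 1 piece of every region (n = 3 arrays per region, 9 in all). All pieces shared the genotype GAD65-GFP, in which a green fluorescent protein is made under the promoter of GAD65, an enzyme of GABA synthesis. The labels name no treatment, no animal without the reporter and no sorting of fluorescent cells, so each array is read as whole tissue. In such tissue, fewer cells of a type and less RNA per cell cannot be told apart. The series concerns dystonia-associated genes and spinal GABAergic circuits, and its design sets the 3 regions side by side.

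AP-2 proteins, the products of the Tfap2 genes, bind DNA as dimers at GC-rich palindromes and act in neural crest, skin and brain. In the embryonic dorsal spinal cord, AP-2 alpha and AP-2 beta are expressed in inhibitory interneurons that depend on the bHLH factor Ptf1a. Lhx9 is a LIM homeodomain factor which, with its close relative Lhx2, marks the Atoh1-derived dI1 neurons, commissural and ipsilateral relay cells that settle in the deep dorsal and intermediate cord. Neurod1 is a NeuroD-family bHLH factor that pairs with E proteins at E-box sequences and acts in the differentiation of neurons and of endocrine cells.

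The promoter window of each gene is shown because the 4 genes were chosen for the same peak in intermediate pieces. It also lets a reader see which recognition sequences of their own protein families lie near their starts. The windows hold 250 bases before and 50 bases after a RefSeq start on GRCm38.p6, with matches in capitals (300 bases each). All 4 genes matched an entry, and Tfap2a had 2 windows, of which the one holding a match is printed. Tfap2a lies on the minus strand at chr13:40734871-40735170, Tfap2b on the plus strand at chr1:19211804-19212103, Lhx9 on the minus strand at chr1:138842395-138842694 and Neurod1 on the minus strand at chr2:79456587-79456886.
Tfap2a: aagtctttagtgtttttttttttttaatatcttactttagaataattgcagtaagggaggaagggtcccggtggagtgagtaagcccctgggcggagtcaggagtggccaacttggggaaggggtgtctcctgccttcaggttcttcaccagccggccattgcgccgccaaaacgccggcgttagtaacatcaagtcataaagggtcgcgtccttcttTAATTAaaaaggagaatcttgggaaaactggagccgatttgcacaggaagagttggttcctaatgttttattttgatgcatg
Tfap2b: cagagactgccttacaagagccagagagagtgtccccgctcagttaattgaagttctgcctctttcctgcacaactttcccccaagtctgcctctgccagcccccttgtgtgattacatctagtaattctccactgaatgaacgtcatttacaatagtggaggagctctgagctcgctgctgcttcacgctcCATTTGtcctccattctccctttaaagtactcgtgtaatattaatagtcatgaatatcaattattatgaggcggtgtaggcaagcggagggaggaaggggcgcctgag
Lhx9: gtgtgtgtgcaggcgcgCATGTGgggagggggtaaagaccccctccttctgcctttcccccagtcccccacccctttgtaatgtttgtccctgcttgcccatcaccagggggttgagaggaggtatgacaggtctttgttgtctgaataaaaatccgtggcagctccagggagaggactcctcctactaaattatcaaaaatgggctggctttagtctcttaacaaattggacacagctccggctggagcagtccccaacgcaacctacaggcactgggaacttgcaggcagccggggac
Neurod1: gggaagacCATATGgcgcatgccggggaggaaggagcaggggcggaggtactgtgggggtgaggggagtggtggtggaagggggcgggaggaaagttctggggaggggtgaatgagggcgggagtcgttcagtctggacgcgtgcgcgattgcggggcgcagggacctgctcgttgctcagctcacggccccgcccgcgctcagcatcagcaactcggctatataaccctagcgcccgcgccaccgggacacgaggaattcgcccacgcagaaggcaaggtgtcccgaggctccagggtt

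Searched were the AP-2 palindrome GCCNNNGGC, the E-box CANNTG and the homeodomain core TAATTA, each of which reads the same on both strands, and no matches of different motifs overlapped. The AP-2 palindrome occurred in 0 of the 5 windows, against 16.7% of 32544 windows of the same length over all genes. An E-box occurred in 3 of the 5 windows, against 72.3% of all windows, and began at position -58 for Tfap2b, -233 for Lhx9 and -242 for Neurod1, counted from the start. TAATTA occurred in the printed Tfap2a window alone, at position -32, against 5.29% of all windows. GC content of the printed windows ran from 46.3% for Tfap2a over 48.3% for Tfap2b and 55.3% for Lhx9 to 66.7% for Neurod1, around a median of 53% over all windows. A match describes letters in a window and does not show that a factor binds there.

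Values are the authors' deposited expression values, read as log2 because they run from 2.15 to 16.27, and fold changes rest on that reading. Between 36.0% and 36.3% of probe sets per array stood at the lowest value of 2.15 or within 0.01 of it, called the floor below. Array medians lay between 3.66 and 3.75, and arrays of the same region correlated at 0.998 or above across probe sets. Some probe sets carry identical values on several arrays of a region, which makes their spread look smaller than it may have been. A gene was called different when the Benjamini-Hochberg adjusted p of limma was under 0.05 over 30305 probe sets above the floor on at least 1 array. Each gene was read from its brightest probe set, which left 13565 genes, and ± marks the model's standard error unless SD is given. Levels of different probe sets are not set against each other.

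Tfap2b had the widest range of the 4 genes. Its brightest probe set, 1435670_at, read 10.23, 9.95 and 10.20 in intermediate pieces of animals 1, 2 and 3, against 5.44, 5.89 and 5.91 in dorsal and 2.63, 3.17 and 3.17 in ventral pieces. The 3 regions did not overlap, and the ranges within a region, 0.27 for intermediate, 0.47 for dorsal and 0.54 for ventral arrays, were small beside the steps between them. The means were 10.13 ± 0.15 for intermediate, 5.74 ± 0.27 for dorsal and 2.99 ± 0.31 for ventral pieces (SD, n = 3 each). Intermediate minus dorsal was 4.38 ± 0.17, a 20.8-fold excess, and intermediate minus ventral was 7.13, or 140-fold. The ventral values lay close to the floor of 2.15, so the size of the 140-fold excess is uncertain.

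The other Tfap2b probe set, 1423340_at, read 8.00, 7.83 and 8.14 in intermediate pieces, 2.78, 2.76 and 2.76 in dorsal pieces, and 2.17 on all 3 ventral arrays. It gave the same order of regions, with dorsal and ventral values close to the floor. Intermediate minus dorsal was 5.22 ± 0.07 (37.4-fold) and intermediate minus ventral 5.82 (56.6-fold).

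Tfap2a kept the order intermediate, dorsal, ventral with smaller steps. Probe set 1421996_at read 7.62, 7.40 and 6.85 in intermediate pieces, against 4.80, 5.25 and 5.25 in dorsal and 4.51, 4.37 and 4.25 in ventral pieces. Every intermediate array lay above every dorsal one and every dorsal array above every ventral one, although dorsal animal 1 and ventral animal 1 were only 0.29 apart. The means were 7.29 ± 0.40 in intermediate, 5.10 ± 0.26 in dorsal and 4.38 ± 0.13 in ventral arrays (SD, n = 3 each). Intermediate minus dorsal was 2.19 ± 0.24 (4.57-fold) and intermediate minus ventral 2.91 ± 0.24 (7.53-fold).

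The dimmer Tfap2a probe set 1426048_s_at read 3.79, 3.43 and 2.30 in intermediate pieces, 2.26, 2.28 and 2.26 in dorsal pieces, and 2.26 on all 3 ventral arrays. Only animals 1 and 2 stood clear of the other regions there, and intermediate animal 3 exceeded the highest dorsal array by little. The third Tfap2a probe set, 1421995_at, was at the floor on all 9 arrays.

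Lhx9 stood clear of the floor in intermediate pieces alone. Probe set 1441313_x_at read 6.47, 6.02 and 5.67 in intermediate pieces (mean 6.05 ± 0.40 SD, n = 3), against the floor on all 3 dorsal and all 3 ventral arrays, so the excess was at least 15.0-fold over either region. The suffix x marks a probe set that the array design flags for probes shared with other transcripts. A second probe set without that flag, 1419324_at, gave the same regional order at lower values, 3.88, 3.90 and 3.48 in intermediate pieces, 2.16, 2.15 and 2.16 in dorsal pieces and 2.16 on all 3 ventral arrays. Its intermediate minus dorsal difference was 1.60 ± 0.11 and its intermediate minus ventral difference 1.59. Probe set 1429905_at left the floor by at most 0.02, reading 2.17, 2.15 and 2.15 in intermediate pieces, and 1431598_a_at was at the floor on all arrays.

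Neurod1 was present in all 3 regions and highest in intermediate pieces. Probe set 1426412_at read 7.27, 6.93 and 7.70 in intermediate pieces, against 5.45, 5.53 and 5.53 in dorsal and 4.80, 4.52 and 4.42 in ventral pieces. No region overlapped another. The means were 7.30 ± 0.39 for intermediate, 5.50 ± 0.05 for dorsal and 4.58 ± 0.20 for ventral pieces (SD, n = 3 each), and 2 of the 3 dorsal values were identical. Intermediate minus dorsal was 1.80 ± 0.20 (3.48-fold) and intermediate minus ventral 2.72 (6.59-fold).

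The other Neurod1 probe set, 1426413_at, read 6.53, 6.39 and 6.21 in intermediate pieces, 4.26, 4.56 and 4.39 in dorsal pieces and 4.56, 4.56 and 3.90 in ventral pieces. The intermediate arrays were again the highest, by 1.98 ± 0.16 over dorsal (3.94-fold) and 2.04 over ventral (4.11-fold). Dorsal and ventral arrays overlapped on this probe set.

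**Figure D1:**
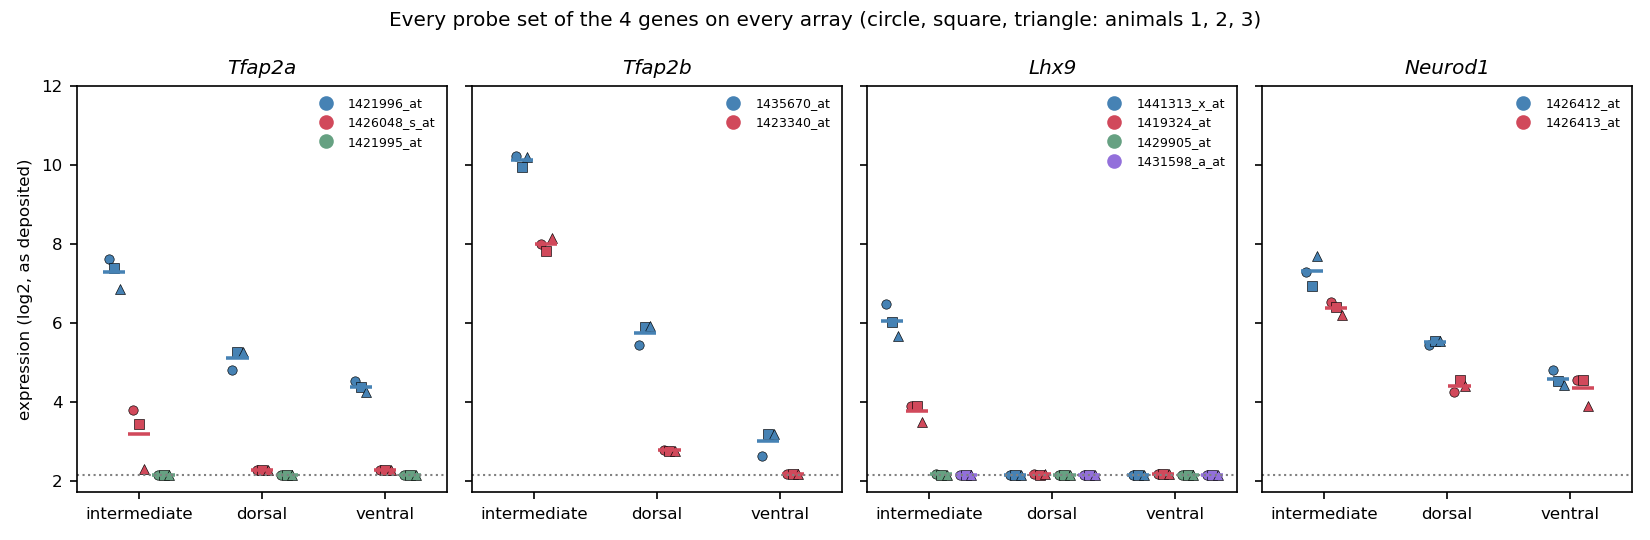
Deposited log2 expression (vertical axis) of each of the 11 probe sets of Tfap2a, Tfap2b, Lhx9 and Neurod1 on every array, by region; symbols mark the animals, short bars the region means, colours the probe sets and the dotted line the floor of 2.15. Intermediate arrays stand highest for every probe set clear of the floor, Tfap2b 1435670_at falls in 2 wide steps to 5.74 and 2.99, and Lhx9 1441313_x_at is at the floor outside intermediate pieces.

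Within each animal the intermediate piece was the highest for all 4 genes. Intermediate minus dorsal of Tfap2a was 2.83, 2.15 and 1.60 in animals 1, 2 and 3, and intermediate minus ventral was 3.11, 3.02 and 2.60. For Tfap2b the same differences were 4.79, 4.07 and 4.29 over dorsal and 7.59, 6.78 and 7.02 over ventral pieces. Neurod1 exceeded the dorsal piece by 1.83, 1.40 and 2.17 and the ventral piece by 2.47, 2.41 and 3.28. The animals did not rank alike across genes: Tfap2a and Lhx9 were highest in the intermediate piece of animal 1 and lowest in that of animal 3, whereas Tfap2b and Neurod1 were lowest in that of animal 2. Ordered by the smaller of the 2 mean excesses among 13565 genes, Tfap2b was number 1, Lhx9 2, Tfap2a 7 and Neurod1 11, which restates the rule that chose them. In all, 1363 genes, 10.0% of those tested, had every intermediate array above every dorsal and ventral array.

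Whether the factors also differed between the outer regions was asked of dorsal against ventral pieces. Over all genes 53.3% were called in this contrast, 24.7% as higher and 28.6% as lower in dorsal pieces, so a call here is common. Of the 3 genes with a brightest probe set above the floor in either region, Tfap2b and Neurod1 were called higher in dorsal pieces and Tfap2a was not. On that probe set all 3 had every dorsal array above every ventral array, as did 28.3% of all genes tested. The brightest Lhx9 probe set was at the floor in both regions and could not be compared. Lhx9 1419324_at, next to the floor in both regions, gave -0.01 ± 0.11 (95% interval -0.28 to 0.27) and was not called.

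Tfap2b was 2.75 ± 0.17 higher in dorsal pieces, a 6.74-fold difference (adjusted p = 0.000323, 95% interval 2.30 to 3.20), with ventral values close to the floor. The animals gave 2.81, 2.71 and 2.74, and no animal left out ended the call. Its other probe set differed by 0.60 ± 0.07 (adjusted p = 0.00206), with ventral arrays near the floor, and lost the call without animal 1 (adjusted p = 0.0538). Neurod1 was 0.92 ± 0.20 higher in dorsal pieces, or 1.90-fold (adjusted p = 0.0191, 95% interval 0.39 to 1.46), at 0.64, 1.01 and 1.11 in the 3 animals. That call was lost without animal 1 (1.06, adjusted p = 0.105), animal 2 (0.88, adjusted p = 0.114) or animal 3 (0.83, adjusted p = 0.0503). Its other probe set gave 0.06 ± 0.16 (adjusted p = 0.838, 95% interval -0.37 to 0.49), so the Neurod1 probe sets disagree on this contrast. Tfap2a differed by 0.72 ± 0.24 (adjusted p = 0.0637, 95% interval 0.10 to 1.34), higher in 3 of 3 animals at 0.29, 0.87 and 1.00. Tfap2a passed the threshold without the animal as a block (adjusted p = 0.0321), after median centring (0.0490), with a stricter filter (0.0311) and with 1 probe set per gene (0.0498). It did not pass without animal 1, 2 or 3 (adjusted p = 0.0524, 0.343 and 0.192). The dimmer Tfap2a probe set 1426048_s_at, near the floor in both regions, gave 0.00 ± 0.33 (95% interval -0.87 to 0.88).

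**Figure D2:**
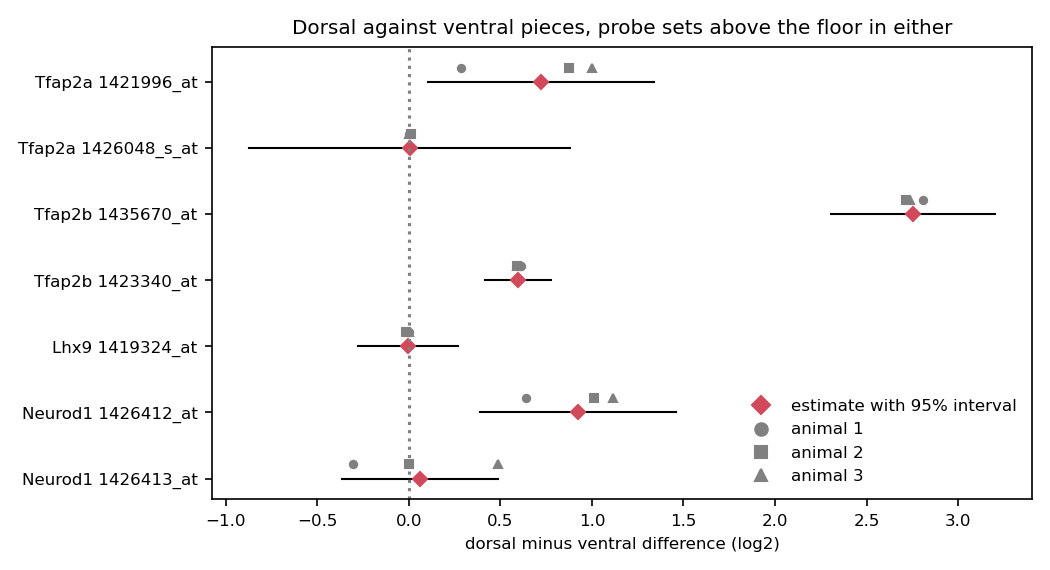
Dorsal minus ventral log2 difference (horizontal axis) of the probe sets of the 4 genes that stood above the floor in either region; diamonds are model estimates with 95% intervals, and grey symbols are the differences within animals 1, 2 and 3. Tfap2b 1435670_at sits at 2.75 with the animals close together, while the Neurod1 probe sets give 0.92 and 0.06.

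No other AP-2 gene was measured at a regional difference. Tfap2c and Tfap2e were at the floor on all 9 arrays, and Tfap2d gave 1 constant value of 2.30, so that Tfap2a and Tfap2b were the AP-2 genes above the floor with values that varied. Of the genes for AP-2 partners and regulators, 9 were on the array and 8 were tested. In intermediate against dorsal pieces, where 29.5% of all genes were called (15.6% higher, 13.9% lower), 1 of the 8 was higher and 4 were lower (median -0.09 against 0.00 over all genes). In intermediate against ventral pieces, where 48.0% of all genes were called (23.3% higher, 24.7% lower), 3 were higher and 0 lower (median 0.22), and dorsal minus ventral was called as higher for 4 and lower for 0 (median 0.29). 

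Cited2, a transactivator that bridges AP-2 proteins to the acetyltransferases p300 and CBP, read 9.49, 9.49 and 9.45 in intermediate pieces, 10.46, 10.62 and 10.45 in dorsal pieces and 8.11, 8.47 and 8.31 in ventral pieces. It therefore ran dorsal over intermediate over ventral, an order that differs from that of Tfap2a and Tfap2b. Its differences were -1.03 ± 0.07 for intermediate minus dorsal (adjusted p = 0.00157, lost without animal 3 at 0.0553), 1.18 for intermediate minus ventral (adjusted p = 0.000543) and 2.21 for dorsal minus ventral (adjusted p = 7.6e-05). Kctd15, which inhibits AP-2 alpha in zebrafish and mammalian cells, was the list member called higher in intermediate pieces against both other regions, by 0.29 ± 0.07 over dorsal (adjusted p = 0.0393) and 0.29 over ventral (adjusted p = 0.0248). Both Kctd15 calls were lost without animal 1 (adjusted p = 0.251 and 0.157) and without animal 3 (0.276 and 0.222). Its dorsal minus ventral difference was 0.00 ± 0.07. The acetyltransferase genes Crebbp and Ep300 and the chromatin reader gene Yeats4 were lower in intermediate than in dorsal pieces by small steps (-0.26, -0.16 and -0.24, adjusted p = 0.0427, 0.00886 and 0.0482), and all 3 of these calls ended after median centring of the arrays. Another Crebbp probe set gave 0.06 (adjusted p = 0.577). With each animal left out in turn, 0 of 5 calls of the list held in intermediate minus dorsal, 1 of 3 in intermediate minus ventral and 3 of 4 in dorsal minus ventral. Fits without 1 animal hold fewer arrays and called fewer genes over the whole array as well. They called 1095 to 1795 genes against 3997 in intermediate minus dorsal, and 3664 to 4698 against 6517 in intermediate minus ventral. Dorsal minus ventral gave 4863 to 5469 against 7225. Lost calls in this and the later lists are therefore common.

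Among the other LIM homeodomain genes, 7 were tested, and Lhx3, Lhx6, Lhx8 and Lmx1a were at the floor on all arrays. Intermediate against dorsal pieces gave 2 higher and 2 lower (median 0.03). Intermediate against ventral gave 2 higher and 0 lower (median 0.19), and dorsal against ventral 2 higher and 1 lower (median -0.01). Over all genes the same contrasts called 29.5% (15.6% higher, 13.9% lower), 48.0% (23.3% and 24.7%) and 53.3% (24.7% and 28.6%). The counts of this list and of every list below are to be read beside those shares. Isl1, a factor of motor neurons and of dorsal sensory relay neurons, read 7.47, 6.67 and 6.67 in intermediate pieces, 2.33, 2.76 and 2.15 in dorsal pieces and 7.21, 7.05 and 6.50 in ventral pieces. It was 4.53 ± 0.24 higher in intermediate than dorsal pieces (adjusted p = 0.000852) and did not pass the test against ventral ones (0.02 ± 0.24, adjusted p = 1). Lhx1, a factor of several inhibitory and commissural classes, and Lmx1b, a factor of dorsal excitatory neurons, ran the other way, highest in dorsal pieces. Lhx1 read 8.61, 8.77 and 8.74 in intermediate pieces, 9.96, 10.08 and 9.94 in dorsal pieces and 7.44, 7.22 and 7.43 in ventral pieces. Its intermediate minus dorsal difference of -1.28 ± 0.09 (adjusted p = 0.00149) missed the threshold without animal 3 (0.0509). Lmx1b differed by -3.56 ± 0.21 for intermediate minus dorsal (adjusted p = 0.00101) and by 1.68 for intermediate minus ventral (adjusted p = 0.00321, lost without animal 2 at 0.0689). With each animal left out in turn, the list kept 2 of 4, 1 of 2 and 3 of 3 calls in the 3 contrasts.

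Lhx5 passed the test in intermediate against dorsal pieces (0.33 ± 0.08, adjusted p = 0.0434), a call that was lost without any 1 animal (adjusted p = 0.204, 0.118 and 0.196 without animals 1, 2 and 3). Lhx4, at 2.23 to 2.32, and Isl2, at 2.15 to 2.16, stayed near the floor and were called in no contrast. Lhx2 is described below with the Atoh1 lineage.

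LIM homeodomain proteins work through the adaptor Ldb and the Ssbp proteins that stabilise it, and LMO proteins compete for the same adaptor. Of 10 such cofactor genes, intermediate minus dorsal was called above 0 for 1 and below 0 for 4 (median -0.21), intermediate minus ventral above 0 for 5 and below for 1 (median 0.26), and dorsal minus ventral above 0 for 6 and below for 1 (median 0.67). Ldb2, a Ldb adaptor, read 10.31, 10.49 and 10.19 in intermediate pieces, 12.04, 11.95 and 11.86 in dorsal pieces and 10.15, 10.08 and 10.16 in ventral pieces. Intermediate minus dorsal was -1.62 ± 0.08 (adjusted p = 0.000733), while intermediate minus ventral was 0.20 ± 0.08 (adjusted p = 0.122). Ssbp2 ran dorsal over intermediate over ventral, with -0.65 ± 0.03 for intermediate minus dorsal (adjusted p = 0.000629) and 1.15 for intermediate minus ventral (adjusted p = 0.000168). Ssbp3 and Ssbp4 were 0.84 and 0.71 higher in intermediate than in ventral pieces (adjusted p = 0.00147 and 0.000681). Lmo3 was 1.69 ± 0.21 higher in intermediate than in ventral pieces (adjusted p = 0.00326, lost without animal 3 at 0.0746) and 1.88 higher in dorsal than in ventral ones (adjusted p = 0.00181). Lmo2 was the list member called higher in intermediate than in dorsal pieces, by 0.29 ± 0.04 (adjusted p = 0.00712), and missed the threshold without animal 1, 2 or 3 (adjusted p = 0.0702, 0.0564 and 0.0873). The intermediate minus dorsal difference of Ldb1 was -0.32 ± 0.05 (adjusted p = 0.0146, lost without animals 1 and 2 at 0.111 and 0.153). The cofactors kept 2 of 5, 3 of 6 and 6 of 7 calls when each animal was left out in turn.

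Of the relatives of Neurod1 among NeuroD and proneural bHLH genes, 4 were tested, and Neurod4, Neurog1, Neurog3, Atoh1, Ptf1a and Bhlhe23 were at the floor on all arrays. Neurod6, a NeuroD relative used in neuronal maturation, gave the same order as Neurod1. It read 11.10, 10.93 and 11.05 in intermediate pieces, 10.10, 10.07 and 9.96 in dorsal pieces and 6.52, 6.47 and 6.15 in ventral pieces, without overlap. Intermediate minus dorsal was 0.98 ± 0.09, or 1.97-fold (adjusted p = 0.00284), and was lost without animal 1 (adjusted p = 0.0678). Intermediate minus ventral was 4.65 (25-fold, adjusted p = 1.00e-04) and dorsal minus ventral 3.67 (12.7-fold, adjusted p = 4.96e-05), and no animal left out ended either call.

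Neurod2 was level, between 5.33 and 5.49 on all arrays, and called in no contrast. Neurog2 left the floor on 1 intermediate array only, at 2.61 in animal 3. Olig3, a factor of dorsal progenitors, read 2.56, 2.69 and 2.56 in intermediate pieces, was at the floor on the dorsal arrays and read 2.75, 2.62 and 2.90 in ventral pieces, all close to the floor. Its intermediate minus dorsal difference of 0.46 (adjusted p = 0.0163) was lost without each animal (adjusted p = 0.154, 0.0546 and 0.0916 without animals 1, 2 and 3), and its dorsal minus ventral difference of -0.61 (adjusted p = 0.00304) without animal 1 (0.0628).

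**Figure D3:**
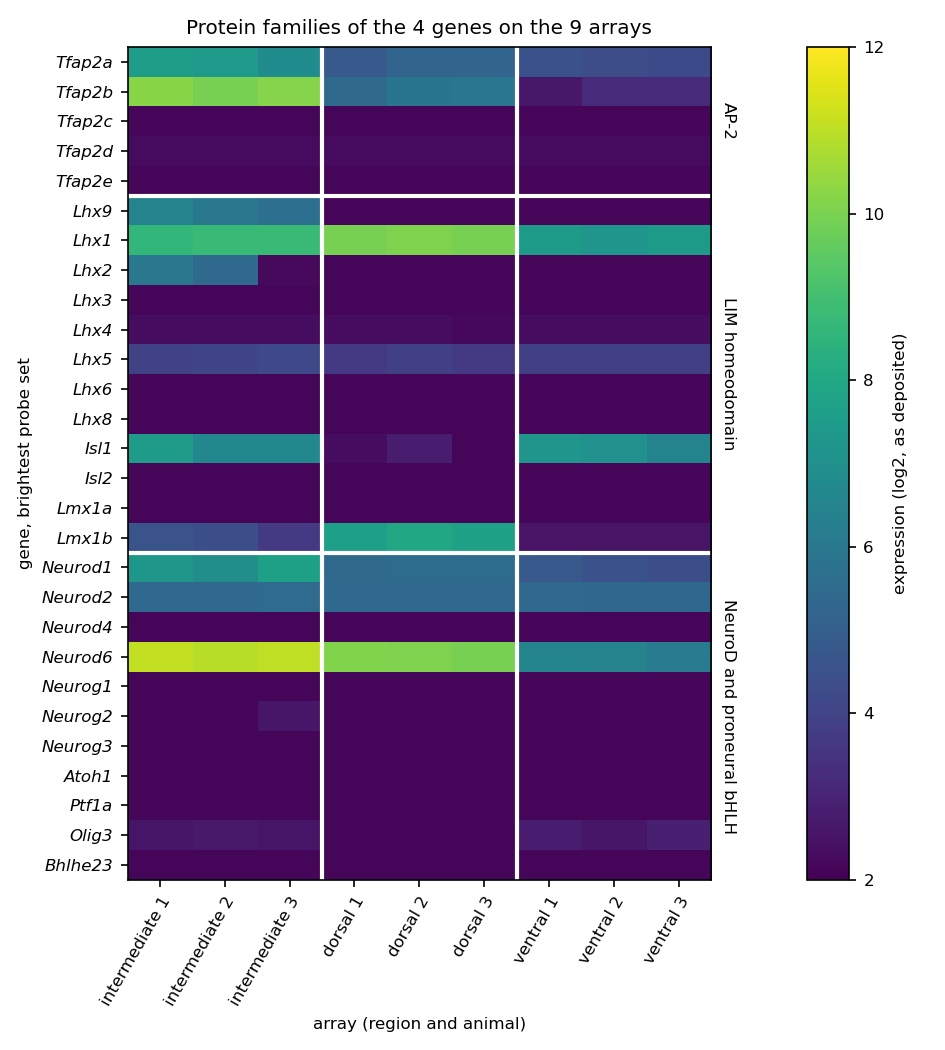
Deposited log2 expression (colour) of the brightest probe set of each gene of the AP-2, LIM homeodomain and NeuroD or proneural bHLH families (rows) on the 9 arrays (columns, by region and animal); colours compare arrays within a row, not genes. Tfap2a, Tfap2b, Lhx9, Neurod1 and Neurod6 are brightest in the intermediate columns, Lhx1 and Lmx1b in the dorsal ones, Isl1 is bright in intermediate and ventral ones, and many rows are at the floor throughout.

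NeuroD proteins bind DNA with E proteins, and Id proteins withhold E proteins from them. Of 10 genes of E proteins, Id and Hes inhibitors, intermediate minus dorsal was called above 0 for 1 and below 0 for 5 (median -0.19), intermediate minus ventral above 0 for 2 and below for 5 (median -0.30), and dorsal minus ventral above 0 for 2 and below for 6 (median -0.30). Id1 read 8.28, 8.18 and 8.45 in intermediate pieces, 9.26, 9.17 and 9.38 in dorsal pieces and 10.35, 10.18 and 10.24 in ventral pieces. Id1 was lowest in intermediate pieces, with -0.97 ± 0.06 against dorsal (adjusted p = 0.00117) and -1.95 against ventral pieces (adjusted p = 0.00019). Id3 differed by -1.25 ± 0.09 and -1.58 in the same contrasts (adjusted p = 0.00157 and 0.00044), and no animal left out ended the Id1 or Id3 calls against either region. Tcf4, an E protein gene, was higher in intermediate pieces than in either other region, by 0.45 ± 0.03 over dorsal (adjusted p = 0.00192, lost without animal 1 at 0.0559) and 0.15 over ventral pieces (adjusted p = 0.0227, lost without animals 1 and 2 at 0.195 and 0.0941). Id4 differed by -0.50 ± 0.04 for intermediate minus dorsal (adjusted p = 0.00266, lost without animals 1 and 2 at 0.0555 and 0.052). Hes5, a Notch target, ran dorsal over intermediate over ventral, at -0.39, 0.71 and 1.10 in the 3 contrasts. Id2 and the E protein gene Tcf3 were lower in intermediate than in ventral pieces, at -0.70 and -0.64 (adjusted p = 0.00113 and 0.000999). Leaving out each animal in turn kept 3 of 6, 6 of 7 and 7 of 8 calls in the 3 contrasts.

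Genes known to follow proneural bHLH factors as neurons differentiate moved in several patterns. Of 12 tested, intermediate minus dorsal was called above 0 for 5 and below 0 for 2 (median 0.16), intermediate minus ventral above 0 for 7 and below for 2 (median 0.74), and dorsal minus ventral above 0 for 6 and below for 3 (median 0.33). Elavl4, a neuronal RNA-binding protein gene, read 12.43, 12.41 and 12.48 in intermediate pieces, 11.40, 11.56 and 11.56 in dorsal pieces and 11.46, 11.41 and 11.42 in ventral pieces. It was higher in intermediate pieces by 0.94 ± 0.05 over dorsal (adjusted p = 0.000886) and 1.01 over ventral (adjusted p = 0.000362), and both calls held with each animal left out. Insm1, a zinc finger factor downstream of Neurod1 in endocrine cells, was 2.50 ± 0.36 higher in intermediate than in dorsal pieces (adjusted p = 0.0102), a call that was lost without each animal (adjusted p = 0.067, 0.106 and 0.0788 without animals 1, 2 and 3). Insm1 did not pass the test against ventral pieces (0.74 ± 0.36, adjusted p = 0.191). Nhlh2, a bHLH gene of young neurons, was 2.99 ± 0.16 higher in intermediate than in ventral pieces (adjusted p = 0.000395) and 2.59 higher in dorsal than in ventral ones (adjusted p = 0.000295). Dcx, a microtubule protein of migrating neurons, ran dorsal over intermediate over ventral, at -1.48, 0.75 and 2.22 in the 3 contrasts. St18 ran ventral over intermediate over dorsal, with 1.20 for intermediate minus dorsal (adjusted p = 0.00452, lost without animals 1 and 2 at 0.0681 and 0.0783) and -2.08 for dorsal minus ventral (adjusted p = 0.00033). Myt1l and Stmn2 were 1.35 and 1.00 higher in intermediate than in ventral pieces (adjusted p = 0.000201 and 0.000438). Leaving out each animal in turn kept 2 of 7, 6 of 9 and 6 of 9 calls of the list.

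Tfap2a and Tfap2b belong to the inhibitory programme of the dorsal cord, so factors listed with that programme, not all of them limited to it, were set beside them. Ptf1a, Gsx1 and Gsx2, which act in progenitors, were at the floor on all arrays. Pax2 and Prdm13, also listed, had no probe set assigned to their symbol alone and were not read. Of the 9 that were tested, intermediate minus dorsal was called above 0 for 2 and below 0 for 6 (median -0.97), intermediate minus ventral above 0 for 4 and below for 0 (median 0.97), and dorsal minus ventral above 0 for 7 and below for 1 (median 1.59). Lbx1, a factor of several dorsal interneuron classes, read 6.20, 6.60 and 5.89 in intermediate pieces, 8.29, 8.52 and 7.87 in dorsal pieces and 3.35 on all 3 ventral arrays. Its intermediate minus dorsal difference was -2.00 ± 0.15 (adjusted p = 0.00182, lost without animal 1 at 0.0585), and its intermediate minus ventral difference was 2.88 (adjusted p = 0.000399). Gbx1 read 3.03, 3.74 and 2.58 in intermediate pieces, 6.63, 6.83 and 6.46 in dorsal pieces and was at the floor in ventral pieces, with -3.52 ± 0.22 for intermediate minus dorsal (adjusted p = 0.00122, kept without each animal). Sall3 differed by -1.15 and 0.98 in intermediate minus dorsal and intermediate minus ventral (adjusted p = 0.0223 and 0.0228), and both calls were lost without animal 2 (0.168 and 0.105) and animal 3 (0.21 and 0.131). Nr4a2, a nuclear receptor gene, was 2.28 ± 0.30 higher in intermediate than in dorsal pieces (adjusted p = 0.00763, lost without animals 2 and 3 at 0.102 and 0.117) and differed from ventral ones by 0.02 ± 0.30 (adjusted p = 1). The list kept 1 of 8, 2 of 4 and 5 of 8 calls when each animal was left out in turn.

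Lhx9 belongs to the Atoh1 lineage, of which 5 other genes were tested and Atoh1 itself, a progenitor gene, was at the floor on all arrays. Lhx2, the closest relative of Lhx9, read 6.02, 5.40 and 2.26 in intermediate pieces, against the floor on all dorsal and ventral arrays. Intermediate animals 1 and 2 stood far above the floor, and animal 3 stood next to it. The difference of 2.41 ± 0.87 missed the threshold against dorsal (adjusted p = 0.124) and ventral pieces (adjusted p = 0.0936). Without animal 1 the difference was 1.68 ± 1.12 (adjusted p = 0.487 against dorsal and 0.425 against ventral pieces). Without animal 2 it was 1.99 ± 1.34 (adjusted p = 0.484 and 0.420), so it missed the threshold in both fits. Without animal 3, the one next to the floor, it was 3.56 ± 0.22 and passed against both (adjusted p = 0.0343 and 0.020). Barhl2, a homeobox gene of the same lineage, read 4.56, 3.43 and 2.80 in intermediate pieces, 2.15, 2.16 and 2.23 in dorsal pieces and 2.23 on all 3 ventral arrays. Its excess was 1.42 ± 0.39 over dorsal (adjusted p = 0.0636) and 1.37 over ventral pieces (adjusted p = 0.0491), a call lost without each animal (adjusted p = 0.113, 0.246 and 0.0913 without animals 1, 2 and 3).

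Lhx9, Lhx2 and Barhl2 shared the order of animals in intermediate pieces, highest in animal 1 and lowest in animal 3, which is also that of Tfap2a; the order was seen after the values were known and was not tested. Barhl1, at 2.41 to 2.48, and Robo3, a receptor gene of commissural axons, at 2.18 to 2.34, stayed near the floor. Pou4f1, also expressed in other dorsal neurons, read 9.34, 9.23 and 8.84 in intermediate pieces, 9.98, 10.18 and 10.08 in dorsal pieces and 5.19, 6.17 and 5.41 in ventral pieces. Its intermediate minus ventral difference was 3.54 ± 0.23 (adjusted p = 0.000614) and held with each animal left out. Its intermediate minus dorsal difference of -0.94 (adjusted p = 0.0457) was lost without each animal (adjusted p = 0.0963, 0.139 and 0.324 without animals 1, 2 and 3).

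**Figure D4:**
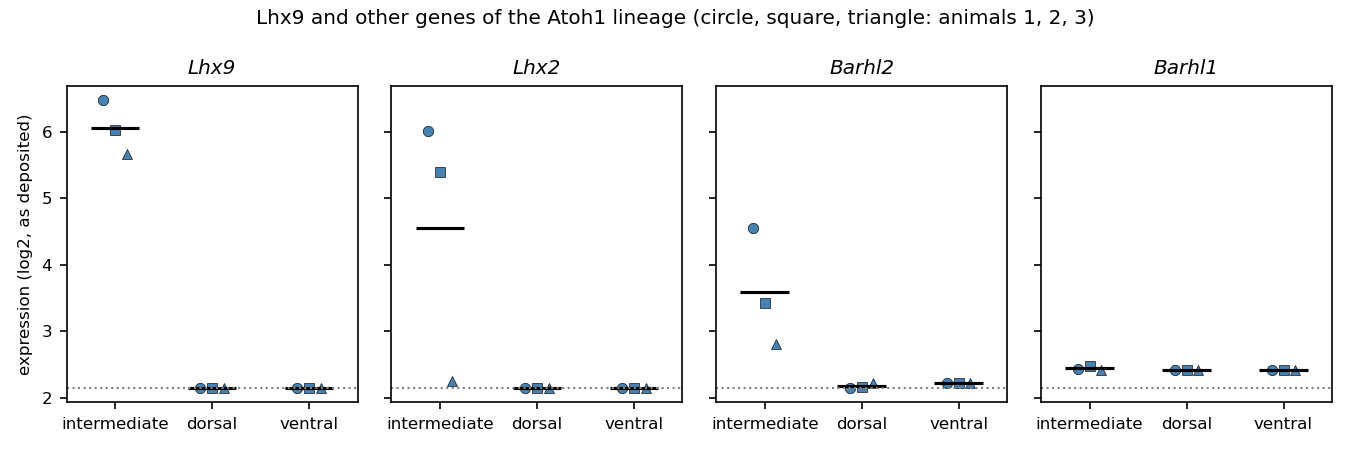
Deposited log2 expression (vertical axis) of Lhx9, Lhx2, Barhl2 and Barhl1 on every array, by region; symbols mark the animals, bars the region means and the dotted line the floor of 2.15. Lhx2 and Barhl2 stand above the floor in intermediate pieces with a wide spread between animals, from 2.26 to 6.02 for Lhx2, and Barhl1 stays near the floor.

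All 4 inhibitory genes tested were called in each contrast, with 3 above 0 and 1 below in intermediate minus dorsal, 4 above 0 in intermediate minus ventral, and 3 above 0 and 1 below in dorsal minus ventral. Gad2, which encodes GAD65, read 11.71, 11.62 and 11.73 in intermediate pieces, 10.38, 10.43 and 10.49 in dorsal pieces and 9.64, 9.85 and 9.80 in ventral pieces. It had the regional order of Tfap2b, with 1.26 ± 0.06 over dorsal (adjusted p = 0.000631), 1.92 over ventral (adjusted p = 0.000181) and 0.67 for dorsal minus ventral (adjusted p = 0.000759). Gad1, the other GABA-synthesising enzyme gene, was highest in dorsal pieces, at -1.06 ± 0.09 for intermediate minus dorsal (adjusted p = 0.00216, lost without animal 2 at 0.0545) and 2.19 for intermediate minus ventral (adjusted p = 0.000256). Slc32a1, the vesicular GABA and glycine transporter, followed the order of Gad2 at 0.75 and 1.55 over dorsal and ventral pieces, and lost the call over dorsal without animals 1 and 3 (adjusted p = 0.093 and 0.106). Slc6a5, the glycine transporter of glycinergic neurons, exceeded dorsal pieces by 1.94 ± 0.08 and ventral ones by 1.38 in intermediate pieces (adjusted p = 0.000566 and 0.000486). Slc17a6, the vesicular glutamate transporter of most excitatory spinal neurons, was 1.56 ± 0.06 higher in intermediate than in ventral pieces (adjusted p = 0.000279) and differed from dorsal ones by -0.02 (adjusted p = 0.927), and Slc17a7 was at the floor throughout. Of the inhibitory transmitter calls, 2 of 4, 4 of 4 and 3 of 4 held in the 3 contrasts with each animal left out in turn.

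The genes whose values followed each factor most closely over the 9 arrays were found by Pearson correlation across 13220 genes. The 9 arrays share 3 regions, so that any gene with a like regional order correlates highly; 109, 207, 115 and 186 genes reached 0.95 with Tfap2a, Tfap2b, Lhx9 and Neurod1. The coefficients are a description with no p. Among the factors themselves they ran from 0.915 between Lhx9 and Neurod1 to 0.980 between Tfap2b and Neurod1.

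Tfap2b was followed most closely by Gad2 (r = 0.999, n = 9 arrays), whose values are given above. Next came Prps1 (0.996), a nucleotide synthesis enzyme gene, Tsn (0.995), which encodes the nucleic acid-binding protein translin, AI504432 (0.993) and Ube2ql1 (0.992). Prps1 shows how small a regional change can still follow Tfap2b, with 10.28, 10.18 and 10.25 in intermediate pieces, 9.86, 9.92 and 9.90 in dorsal pieces and 9.64, 9.70 and 9.66 in ventral pieces. Tfap2a was followed by Nop56 (0.991), Glra2 (0.990), which encodes a glycine receptor subunit, Plvap (0.988), Ptx3 (0.987) and Lrrtm3 (0.987). Glra2 read 11.47, 11.40 and 11.33 in intermediate pieces, 10.72, 10.71 and 10.75 in dorsal pieces and 10.48, 10.50 and 10.36 in ventral pieces.

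Lhx9 was followed by Bhmt (0.992), Cfap54 (0.989), Vstm2b (0.987), 4930426D05Rik (0.986) and Tmem229b (0.986). Of these 4930426D05Rik had the widest step, with 7.85, 7.63 and 7.79 in intermediate pieces, 4.91, 5.35 and 5.35 in dorsal pieces and 4.95, 5.13 and 4.81 in ventral pieces. Neurod1 was followed by Larp1 (0.992), Atp2b3 (0.992), a plasma membrane calcium pump gene, Stk26 (0.992), B4gat1 (0.989) and Stau2 (0.989). Atp2b3 read 11.25, 11.17 and 11.38 in intermediate pieces, 10.46, 10.68 and 10.66 in dorsal pieces and 10.28, 10.25 and 10.17 in ventral pieces. Another probe set of Stk26 moved by -0.02 for intermediate minus dorsal, against 1.27 on the one correlated here. When genes were limited to those with 9 distinct values above the floor, 2, 5, 1 and 3 of the 5 genes stayed for Tfap2a, Tfap2b, Lhx9 and Neurod1, and by Spearman's rho 0 stayed for each.

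**Figure D5:**
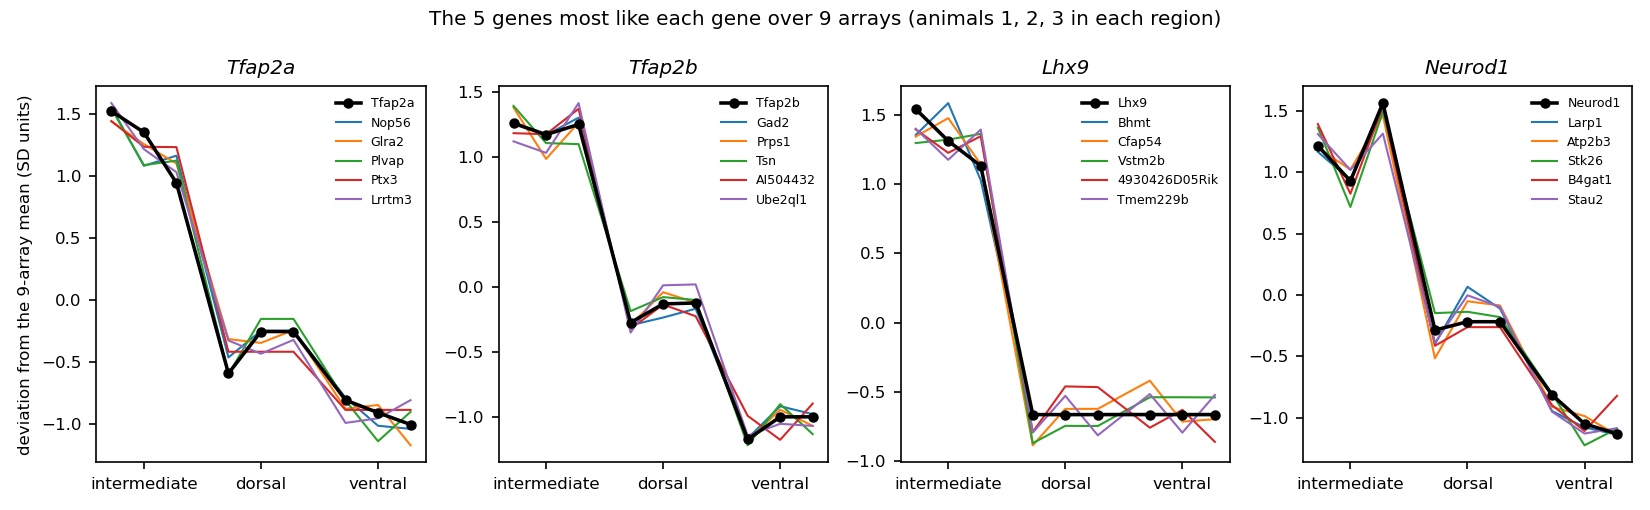
Deviation of each array from the mean of the 9 arrays, in units of the gene's own SD (vertical axis), for Tfap2a, Tfap2b, Lhx9 and Neurod1 (black) and the 5 genes most correlated with each (colours), ordered by region and, within it, by animals 1, 2 and 3; lines only join the arrays of a gene. Tfap2a, Tfap2b and Neurod1 step down in order of region, while Lhx9 and its followers are high in intermediate pieces and low in both other regions.

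The genes next to each factor in RefSeq order were read as well; they were looked up by position after the values were known. Gcnt2, beside Tfap2a, was highest in dorsal pieces, with -1.10 for intermediate minus dorsal (adjusted p = 0.0223, lost without animals 1, 2 and 3 at 0.0556, 0.111 and 0.189) and 1.98 for dorsal minus ventral (adjusted p = 0.00154). Beside Tfap2b, Tfap2d was constant and Pkhd1, between 2.15 and 2.43, was called in no contrast. Beside Lhx9, Nek7 did not pass the test between intermediate and dorsal pieces (0.25 ± 0.07, adjusted p = 0.0641) and differed by -0.90 for intermediate minus ventral (adjusted p = 0.000899). The other neighbour of Lhx9, 2310009B15Rik, was 0.65 ± 0.13 higher in intermediate than in dorsal pieces (adjusted p = 0.0268, lost without animals 1, 2 and 3 at 0.168, 0.0857 and 0.124) and did not pass against ventral ones (0.07). Beside Neurod1, Cerkl was at the floor, and Itprid2 gave 0.11 ± 0.05 and -0.55 for intermediate minus dorsal and intermediate minus ventral (adjusted p = 0.183 and 0.00112). No neighbour was called higher in intermediate pieces against both other regions.

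Other cells in the pieces also differed between regions, and their markers are given beside these results as summed linear values, lowest to highest array. Meningeal and fibroblast genes summed to 3129 to 3942 in intermediate, 13012 to 27952 in dorsal and 17383 to 23627 in ventral pieces, with 0 of 9 higher and 8 lower against dorsal and 9 lower against ventral. Genes of Schwann cells and neural crest glia summed to 1298 to 1670 in intermediate, 5387 to 18636 in dorsal and 8760 to 11712 in ventral pieces, with 3 of 7 lower against each. The 3 were Ncmap, Pmp2 and Pmp22 against dorsal pieces, and Pmp2, Pmp22 and Sox10 against ventral ones. The 8 meningeal and 3 Schwann cell calls against dorsal pieces were all lost without animal 3. With each animal left out in turn, 4 of 9 and 3 of 3 held against ventral pieces. Ependymal genes summed to 801 to 976 in intermediate, 143 to 180 in dorsal and 654 to 713 in ventral pieces, and 6 of 7 were higher than in dorsal pieces, with 4 of these 6 calls kept when each animal was left out in turn. Against ventral pieces 2 of the 7 were higher and 0 lower, and neither call was kept. Neuronal genes summed to 78783 to 83100 in intermediate, 68099 to 76944 in dorsal and 59790 to 61342 in ventral pieces, with 3 of 6 higher and 2 lower against dorsal, all 5 lost without animal 3, and 5 of 6 higher against ventral, all kept with each animal left out. Astrocyte genes summed to 76707 to 80673 in intermediate, 65278 to 73180 in dorsal and 111667 to 114264 in ventral pieces, with 7 of 7 lower against ventral, of which 4 calls held with each animal left out. Against dorsal pieces 3 astrocyte genes were higher and 1 was lower, and 1 of these 4 calls held with each animal left out. Microglial genes summed to 2727 to 3243 in intermediate, 4001 to 4839 in dorsal and 4772 to 5311 in ventral pieces, with 7 of 8 called lower against dorsal and 8 of 8 against ventral; none of the 7 and none of the 8 calls was kept with each animal left out in turn. Oligodendrocyte lineage genes summed to 76025 to 82327 in intermediate, 74565 to 76909 in dorsal and 97225 to 101918 in ventral pieces, and all 6 calls of 7 genes as lower against ventral pieces held with each animal left out. In intermediate against dorsal pieces 4 of the 7 were higher and 0 lower, with 1 of these 4 calls held. Endothelial and mural genes summed to 7433 to 8269 in intermediate, 5688 to 6827 in dorsal and 11352 to 11496 in ventral pieces, with 7 of 8 lower against ventral, of which 1 call held with each animal left out. Against dorsal pieces 2 of the 8 endothelial and mural genes were higher and 0 lower, and neither call was kept. Motor neuron and other cholinergic genes summed to 133 to 209 in intermediate, 35.4 to 37.8 in dorsal and 678 to 919 in ventral pieces. Of these 8 genes, 4 were at the floor on all arrays and add floor values to each sum. Isl1 was the only one called in intermediate against dorsal pieces, and Prph the only one against ventral pieces, so the sums do not follow the list as a whole. Genes of cerebrospinal fluid contacting neurons summed to 51.9 to 53.6 in intermediate, 36.7 to 52.5 in dorsal and 59.2 to 65.1 in ventral pieces. Of these 6 genes, 3 were at the floor on all arrays. Pkd2l1 was the only one called between intermediate and other pieces, lower than in ventral ones. Of 2 erythroid genes on the array, 1 was at the floor throughout and the other was called in no contrast. The part of these cells in the results above was not tested. Of the sensory ganglion markers, Avil, Scn10a, Trpv1, Runx1 and Runx3 were at the floor on all arrays, and the list summed to 37.3 to 38.0 in intermediate and 37.2 in dorsal pieces, against 594 to 789 in ventral pieces, where Prph, also a motor neuron gene, was high.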

How the data were processed

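Per the labels' protocols, biotin-labelled cRNA was made from 500 ng of each piece's total RNA by in vitro transcription and hybridised to an Affymetrix array. The deposited values were read as log2 from their range, since no label states the scale; the sources used here do not give how the authors summarised, normalised or floored them. Probe sets were named by the platform annotation (34945 of 45037 with 1 symbol, 932 with several, 9160 not listed). The 30305 probe sets above the floor on at least 1 array were fitted with limma 3.58.1 in R 4.3.3, with region and animal as fixed effects, eBayes (4 residual and 0.753 prior degrees of freedom), two-sided tests and Benjamini-Hochberg adjustment over all of them. The number of arrays limits the precision. Python 3.11.15 and matplotlib 3.10.9 made the figures, and the fit was tested on simulated data.

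The titles name the animal of each array, which is where the pairing comes from. Same-animal arrays deviated from their region means with correlations of -0.05 to 0.18 (mean 0.07, 9 pairs, 3 above 0.1), and arrays of different animals with -0.16 to 0.13 (mean -0.04, 18 pairs).

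The 4 genes and the 11 related and 12 marker lists were chosen with earlier results of these data known. Named are all probe sets of the 4 genes, the 5 genes most correlated with each, all genes of lists of up to 6 measured genes, the 4 largest called differences per contrast of longer lists, and family members. Other scalings, filters, a fit without the block, a gene-level fit, a trend and robust prior, fits on 2 regions and on probe sets with 9 distinct values, and fits without each animal were run. Some genes of the lists were not analysed here. Sequences are RefSeq's.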

Additional observations from a re-analysis of the deposited data

How the results depend on the processing

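Leaving out 1 animal at a time gave 1095 to 1795 genes called in intermediate against dorsal pieces, against 3997 with all animals, and 3664 to 4698 in intermediate against ventral pieces, against 6517; dorsal against ventral pieces gave 4863 to 5469, against 7225. These fits hold fewer arrays. A fit of only the 2 regions compared called 1634 genes in intermediate against dorsal pieces. Median centring moved the split of that contrast to 2977 higher and 1441 lower, against 2114 and 1883. Of the 3 testable genes, 2 passed in dorsal against ventral pieces, 1 in every fit without an animal and 1 to 3 over all settings. Neurod1 ran from 0.83 to 1.06 without an animal and lost the call each time. Tfap2a, not called at 0.72 (adjusted p = 0.0637), passed without the animal block (0.72, adjusted p = 0.0321), after median centring (0.67, adjusted p = 0.0490), with a filter at the 50th percentile of means (0.72, adjusted p = 0.0311) and with 1 probe set per gene (0.72, adjusted p = 0.0498). It stayed above the threshold in the other 7 settings (adjusted p = 0.0524 to 0.343); the cause was not tested. With no replicate block, 7428, 4224 and 6691 genes were called in dorsal minus ventral, intermediate minus dorsal and intermediate minus ventral, and the block changed no other call of the 4 genes. Tfap2b kept its dorsal over ventral call in all settings run (2.71 to 2.77, adjusted p up to 0.0225). Tfap2a, Tfap2b and Neurod1 carry tied values, so the fit on probe sets with 9 distinct values gave none for these genes. The 48 differences of the 4 genes between intermediate and other pieces, over the settings run, moved by less than 1 SD and kept their sign. Probe sets at the floor have bounds only, so small differences there were not measurable.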
